A study of Mus musculus with 4 samples.

Results

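Accessible chromatin was described at 5 mouse genes chosen as transcription factor genes of the posterior palate, namely Mn1, Tbx22, Barx1, Meox2 and Hand2. Of 39843 regions made by merging the peak lists of 4 libraries, 18 had 1 of these genes as their nearest protein-coding gene within 100 kb. The assay was ATAC-seq, which marks open chromatin by where a transposase can cut and tag the DNA, on sorted green fluorescent palatal mesenchymal cells of E14.5 embryos. The 2 mutant libraries carried the genotype Shox2Cre/-;Nkx2.5F/F;R26RmTmG, and the 2 control libraries carried Shox2Cre/+;Nkx2.5F/F;R26RmTmG. Both genotypes therefore had Cre in place at Shox2, 2 floxed alleles of Nkx2-5, which Cre can cut, and a reporter that Cre switches to green fluorescence. Because 1 Shox2 allele was intact in the controls, they were not wild type. The sort selected cells of the Shox2 lineage, and no step in the labels separates anterior from posterior cells. The labels give 50000 pooled cells for each group and do not say that libraries of a genotype came from separate pools, so the spread between them may be technical.

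The secondary palate grows as a pair of shelves whose anterior mesenchyme expresses Shox2, a homeobox gene, while other transcription factors are expressed toward the back. In mice, Mn1, a transcriptional coregulator, is needed for growth of the posterior shelves and acts upstream of Tbx22, a T-box repressor whose human gene is mutated in X-linked cleft palate. Barx1 and Meox2 encode homeodomain proteins of the posterior mesenchyme, and Hand2 encodes a basic helix-loop-helix factor of the pharyngeal arches that is also needed for palate formation. Where in the palate Hand2 is expressed was not examined here. A peak shows where DNA was open in the cells sampled, and it does not show that the neighbouring gene was transcribed. The question here was which parts of these loci were open in cells of the Shox2 lineage, with and without an intact Shox2 allele.

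The promoters of these genes differed in sequence and in whether a peak covered them. The 250 bases before annotated starts are shown for a promoter with a peak in all 4 libraries (Meox2), one with a peak in 2 libraries (Barx1), one with no peak (Hand2) and the start of Tbx22 nearest to its only region. They are from RefSeq on GRCm38.p6, the build that mm10 names, and are written 5′ to 3′ on the plus strand, with matches to 5 searched motifs in capitals.
Meox2 (chr12:37108290-37108539): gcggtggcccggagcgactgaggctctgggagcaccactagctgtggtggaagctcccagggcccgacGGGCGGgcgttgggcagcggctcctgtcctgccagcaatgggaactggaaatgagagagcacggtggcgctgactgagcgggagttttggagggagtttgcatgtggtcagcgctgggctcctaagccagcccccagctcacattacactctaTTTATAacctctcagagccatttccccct
Barx1 (chr13:48662786-48663035): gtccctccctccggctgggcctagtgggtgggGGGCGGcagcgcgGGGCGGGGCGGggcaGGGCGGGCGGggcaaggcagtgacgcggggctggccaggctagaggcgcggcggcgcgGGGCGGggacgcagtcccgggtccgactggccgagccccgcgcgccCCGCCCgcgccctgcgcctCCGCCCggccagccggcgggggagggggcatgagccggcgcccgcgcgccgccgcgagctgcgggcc
Hand2 (chr8:57320733-57320982): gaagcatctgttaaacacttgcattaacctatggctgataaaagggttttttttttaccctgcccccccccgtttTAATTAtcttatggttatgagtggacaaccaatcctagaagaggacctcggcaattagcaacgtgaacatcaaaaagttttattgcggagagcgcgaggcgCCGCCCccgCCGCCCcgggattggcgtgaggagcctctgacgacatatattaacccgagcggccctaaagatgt
Tbx22, second annotated start (chrX:107676262-107676511): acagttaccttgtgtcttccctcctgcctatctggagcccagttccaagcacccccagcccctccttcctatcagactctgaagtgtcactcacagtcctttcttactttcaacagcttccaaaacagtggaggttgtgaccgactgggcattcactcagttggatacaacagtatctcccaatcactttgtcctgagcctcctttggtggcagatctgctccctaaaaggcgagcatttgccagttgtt
The capitals mark, on either strand, TAATTA, the core site of many homeodomain proteins, the palindromic P3 site of paired-type homeodomains, the T-box site AGGTGTGA, the GC box GGGCGG, and TATAAA, the TATA box. The Barx1 promoter held 8 GC boxes, counting overlapping copies, against 2 in Hand2, 1 in Meox2 and 0 in Tbx22. GGGCGG was found in 43.1% of 21045 annotated promoters of the same length. Meox2 held 1 TATAAA, found in 11.7% of all promoters, and Hand2 held 1 TAATTA, found in 4.24%. The P3 site occurred in 0.361% of all promoters, AGGTGTGA in 1.01%, and neither in these promoters. The E-box CANNTG, bound by basic helix-loop-helix factors and not capitalised, occurred in 62.8% of all promoters and 2 times in Hand2, 1 time in Meox2, 3 times at this start of Tbx22 and 0 times in Barx1.

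The lists held 29225 and 31832 peaks in mutants 1 and 2, against 30239 and 22966 in controls 1 and 2, so that control 2 stood apart with the shortest list. Read depth is unknown. The labelled cell type was checked by peaks at the ends of marker genes. Of 9 markers of palate mesenchyme, 6 had a region within 1 kb of an end in all 4 libraries, against 43.7% of 21631 protein-coding genes, and 0 of the 9 lacked an end region altogether. For other cell types it was 2 of 7 for epithelium, 0 of 4 for endothelium, 1 of 3 for blood, 0 of 4 for skeletal muscle, 2 of 3 for neurons and 2 of 2 for glia. Of the 23 markers of other cell types, 5 had no region assigned to them (21.7%), against 6920 of all genes (32.0%). Peaks at the mesenchyme markers numbered 8.56 and 8.48 per 10000 in the mutants, against 7.61 and 9.15 in the controls. Epithelial markers had 4.45 and 5.34 per 10000 in the mutants, against 5.62 and 3.92 in the controls, and the part of other cell types in the results was not tested.

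Mn1 had the most regions with a peak in every library. Of its 4 regions, 3 held a peak in all 4 libraries, and no more than 3 such regions were found at 97.8% of protein-coding genes. The region over the end of Mn1 with the lower coordinate lay at chr5:111416595-111417516. Each peak is described by its percentile, the rank of its deposited −log10 p within the list of its own library, where 100 is the strongest. At that region the percentile was 67.1 and 70.3 in mutants 1 and 2, against 61.9 and 58.7 in controls 1 and 2. The authors' fold enrichment there was 5.68 and 6.27 in the mutants, against 5.56 and 6.01 in the controls. The summits of the 4 peaks lay within 47 bp of each other. The medians over regions in 4 libraries within 1 kb of gene ends were 78.6 and 80.3 in mutants, against 79.4 and 73.0 in controls. All libraries thus had a peak at this gene end, at nearly the same place and below the median of such ends. Both percentiles were higher in the mutants than in either control. By rank among regions in all 4 libraries the genotypes overlapped there.

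The other regions of Mn1 were spread over the open ground on both sides of the gene. A region 8.47 kb below it, at chr5:111408417-111409241, had percentiles of 20.5 and 32.1 in the mutants, against 51.9 and 35.6 in the controls. The authors' fold enrichment was 4.62 and 5.28 in the mutants, against 7.07 and 6.30 in the controls. Both values were lower in both mutants, and the groups did not overlap. A region 39.9 kb above the gene, at chr5:111496398-111497400, varied most between libraries of a genotype. Its percentile was 62.8 and 9.46 in mutants 1 and 2, against 61.0 and 28.5 in controls 1 and 2, so the first library of each genotype was high and the second low. The fourth, at chr5:111530940-111531709 and 74.3 kb above the gene, was the farthest of the 18 regions from its gene. It held a peak in both mutants, at percentiles 7.36 and 12.1, and in neither control. Mutant-only regions made up 4.01% of the 34802 regions within 100 kb of a gene and control-only regions 1.07%, while these 5 genes had 1 and 0 of 18. A single mutant-only region is close to that background. Just beyond the 100 kb limit, the next region above Mn1, at 116.6 kb, held a peak in mutant 1 only, at percentile 3.83.

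Tbx22, which acts downstream of Mn1 in mice and lies on chromosome X, had 1 region. It lay inside the gene at chrX:107676553-107677336 and held a peak in mutant 2 and control 2, at percentiles 29.8 and 25.5. The authors' fold enrichment was 5.63 in mutant 2, against 5.98 in control 2. The region was thus called in 1 library of each genotype, and the labels do not say that libraries of equal number form a pair. It began 41 bp after the second of 3 annotated starts of Tbx22, and its summits lay 385 bp after that start in mutant 2 and 561 bp after it in control 2. No peak covered the first annotated start, at 107667964, or the third, at 107679015, in any library. The promoter window of the second start, from 250 bases before to 50 bases after it, shared 9 bases with the region.

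**Figure D1:**
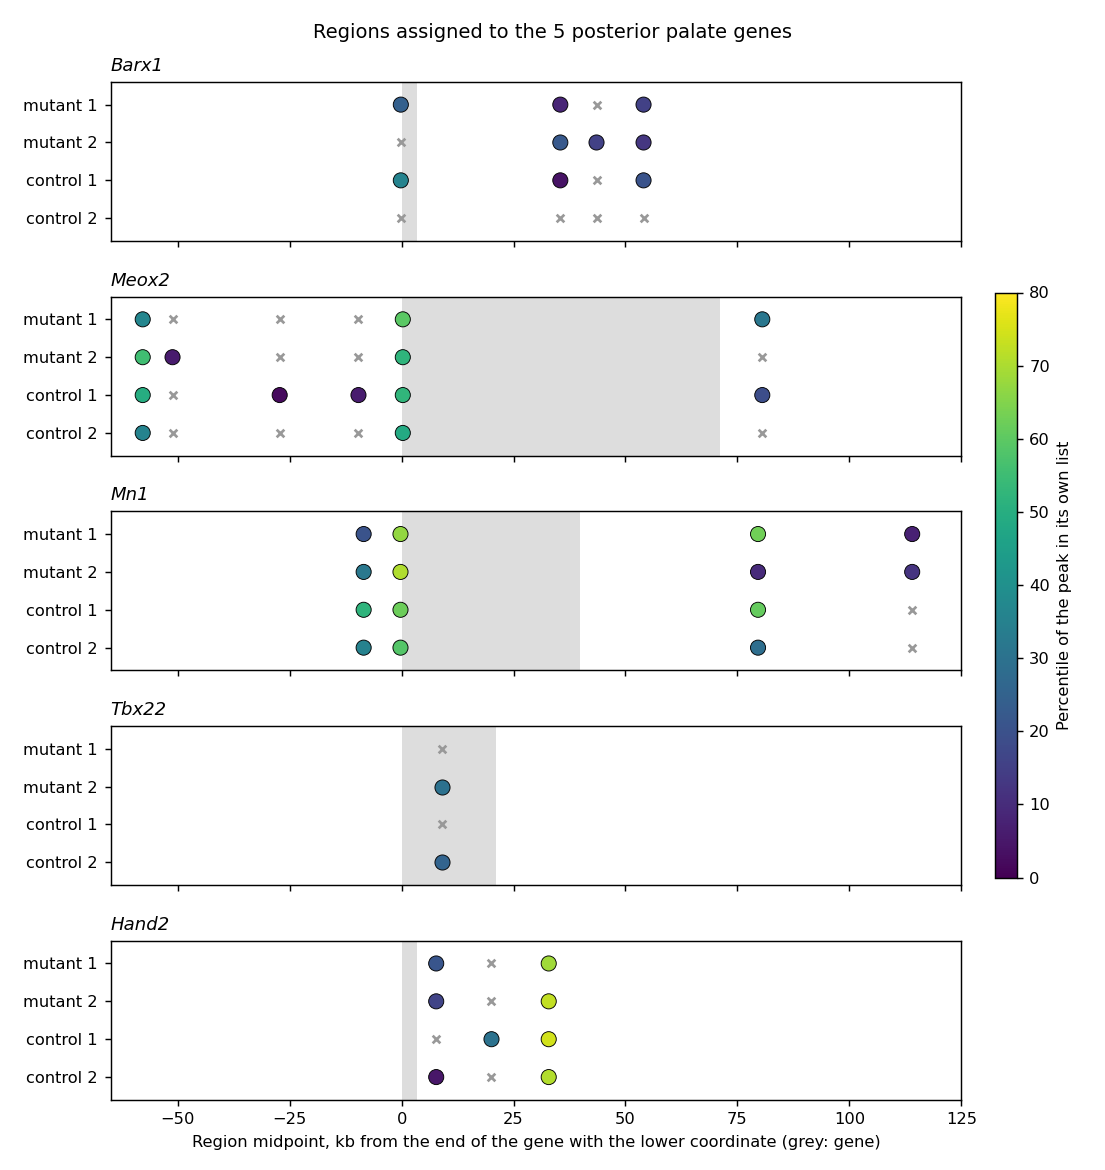
Regions at each gene by library, with mutants above controls. The horizontal axis is the distance in kb from the gene end with the lower coordinate, the grey band is the gene, filled points are peaks coloured by percentile within their own list, and grey crosses mark libraries without a listed peak. Mn1 had points in all 4 rows at 3 places, Hand2 had its highest percentiles 29.3 kb beyond the gene and none at the gene, and control 2 had no peak at Barx1.

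Barx1 had 4 regions and none of them held a peak in all 4 libraries. The promoter region at chr13:48662350-48663382 spanned the annotated start and held a peak in mutant 1 at percentile 24.3, against control 1 at percentile 35.9. The authors' fold enrichment was 4.11 in mutant 1, against 4.61 in control 1. Mutant 2 and control 2 had no listed peak there, so this promoter was also called in 1 library of each genotype. Among regions within 1 kb of an end of their gene, 84% were called in every library.

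The distal regions of Barx1 lay above the gene, toward Phf2, in a gap of 135.2 kb between both genes. The region at chr13:48698175-48698797, 32.0 kb from the gene, had percentiles of 8.31 and 22.1 in the mutants, against 4.003 in control 1. The region at chr13:48716600-48717535, 50.6 kb away, had 15.4 and 12.6 in the mutants, against 20.4 in control 1. The region at chr13:48706253-48706879 was called in mutant 2 alone, at percentile 15.4. Control 2 had 0 peaks at Barx1, against 3 in each other library, and the percentiles of those peaks ran from 4.003 to 35.9. In the stretch of 153.8 kb between the peaks of control 2 that flank the locus, 15 peak numbers are missing from the deposited names, so peaks had been taken out of the list, and the absence of a call does not show closed chromatin.

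Meox2 had 6 regions, the most of the 5 genes, and 2 of them held a peak in all 4 libraries. The region over the annotated start lay at chr12:37107896-37109727 and was 1832 bp wide. Its percentile was 59.7 and 52.2 in mutants 1 and 2, against 52.2 and 48.5 in controls 1 and 2, with the groups overlapping. The authors' fold enrichment was 5.92 and 5.22 in the mutants, against 5.62 and 5.69 in the controls. The summits lay 3 and 8 bp after the start in the mutants, against 27 bp before it in control 1 and 156 bp after it in control 2. The peak thus sat on the annotated start in every library.

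The distal regions of Meox2 were mostly weak. The exception was a region 57.8 kb below the gene, at chr12:37050178-37051292. Its percentile was 36.8 and 55.5 in the mutants, against 49.8 and 35.7 in the controls. Its authors' fold enrichment was 6.22 and 7.78 in the mutants, against 7.90 and 6.84 in the controls. The ranges of both genotypes overlapped. A region 9.56 kb above the gene, at chr12:37188682-37189496, was called in mutant 1 at percentile 31.7, against control 1 at 18.9. The remaining 3 regions were each called in 1 library, in mutant 2 at percentile 5.75 and in control 1 at percentiles 1.96 and 6.22.

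Hand2 showed another layout, with no peak at its start and its highest peak far from it. The region at chr8:57353419-57354264 lay 29.3 kb above the gene and had the highest percentile of the 18 regions in each of the 4 libraries. Its percentile was 68.7 and 72.8 in the mutants, against 74.6 and 70.9 in the controls. The medians over all regions in 4 libraries were 67.6 and 70.2 in the mutants, against 68.7 and 58.8 in the controls. Among those farther than 1 kb from gene ends, this region ranked at 70.7 and 72.8 in mutants, against 78.3 and 82.9 in controls. It was thus of middle rank among all regions in 4 libraries and above the middle among the distal ones. The authors' fold enrichment was 8.16 and 8.07 in the mutants, against 8.81 and 8.63 in the controls. The 4 summits lay within 5 bp of each other, the closest among the regions of these 5 genes with a peak in all 4 libraries. The nearest gene on that side, Scrg1, lay 131.4 kb beyond the end of Hand2.

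The other regions of Hand2 were called in some libraries. The region at chr8:57328441-57328993, 4.20 kb above the gene, had percentiles of 21.1 and 16.2 in the mutants, against 4.96 in control 2 and no call in control 1. The region at chr8:57340785-57341338 was called in control 1 alone, at percentile 30.2. The annotated start of Hand2 was covered by a peak in 0 libraries, as were 41.2% of 21045 annotated promoter windows of protein-coding genes. Peaks in all 4 libraries covered 50.7% of those windows.

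**Figure D2:**
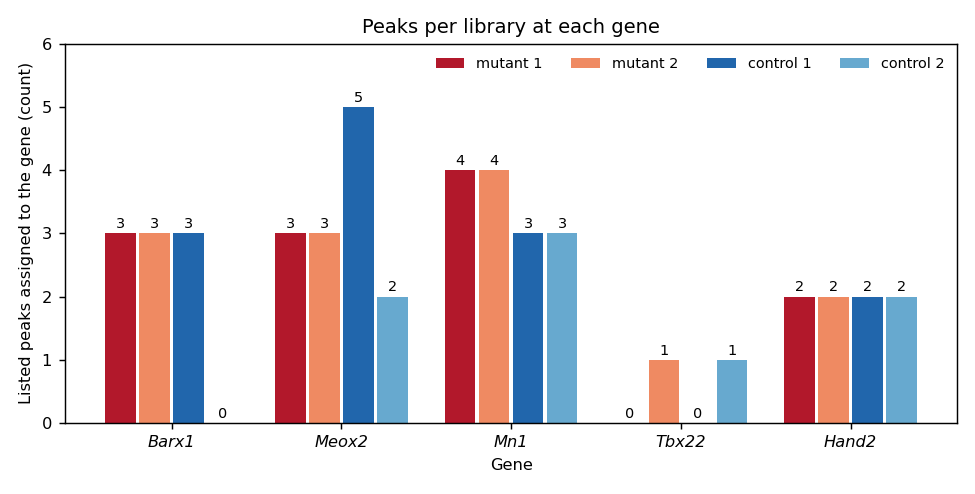
Number of listed peaks assigned to each gene, with a bar per library and mutants left of controls. Mn1 had 4 peaks in each mutant, against 3 in each control, Hand2 had 2 in every library, and Barx1 had 0 in control 2.

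GC content and peak calls differed between these promoters. The 250 bases before the start were 62.0% G or C in Meox2, 85.6% in Barx1 and 49.2% in Hand2, and 49.6%, 50.4% and 42.0% at the 3 starts of Tbx22. The median was 61.6% over the 10675 promoters with a peak in all 4 libraries and 47.6% over the 8680 promoters with a peak in none. Barx1 held 40 CpG dinucleotides, against 15 in Hand2, 12 in Meox2 and 1 or 2 at the starts of Tbx22. The median number was 17 over promoters with a peak in all 4 libraries and 2 over promoters with none. By this number Hand2 lay near the median of promoters with a peak in every library. By GC content, Meox2 lay near the median of promoters with a peak in every library. Hand2 and the first start of Tbx22 lay by GC content near that of promoters with none. The GC content of Barx1 lay above the 95th percentile of promoters with a peak in every library, which was 77.2%, and Barx1 had a peak in 2 libraries.

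**Figure D3:**
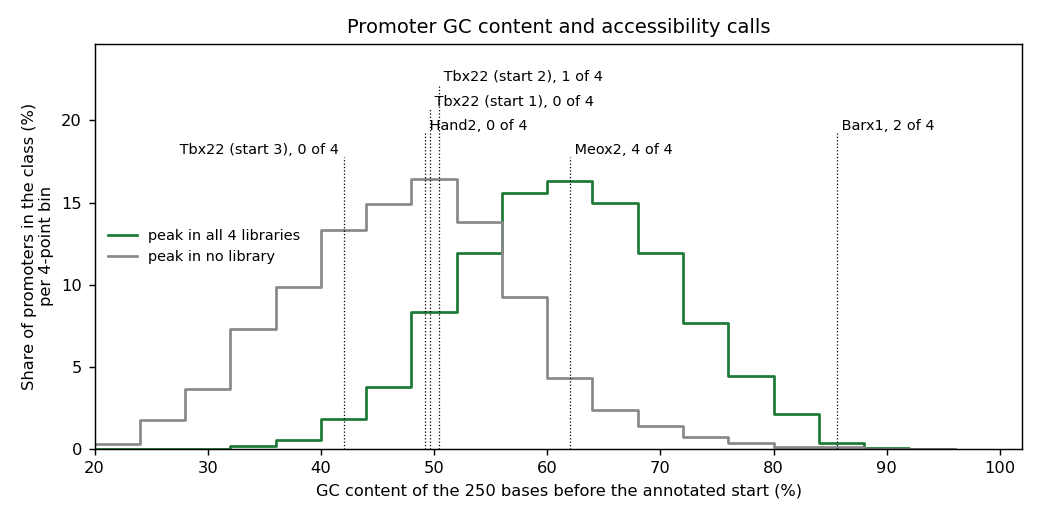
GC content of promoters with a peak in all 4 libraries (green) and in no library (grey). The horizontal axis is the GC content in percent, the vertical axis the share of the class in each 4-point bin, and dotted lines mark the promoters of Meox2, Barx1, Hand2 and Tbx22 with the number of libraries whose peaks cover them; Barx1, at 85.6%, lay in the upper tail.

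Across the 5 genes, 6 of 18 regions (33.3%) held a peak in all 4 libraries, against 50.4% of the 34802 regions within 100 kb of a protein-coding gene. The exact binomial 95% interval of the share at these genes, which covers counting error only, was 13.3% to 59.0%. It treats the 18 regions as independent, though they lie at 5 genes and were called in the same 4 libraries. It is therefore no test of these genes against the background. Within 1 kb of a gene end, 2 of 3 regions did so, against the 84% given above. Farther from the ends, 4 of 15 did so (26.7%), against 34.1%. Of the 18 regions, 5 were called in 1 library (27.8%), against 22.3%. The regions in all 4 libraries lay at Mn1, Meox2 and Hand2, and Barx1 and Tbx22 had none. Of all protein-coding genes, 43.8% had none either.

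**Figure D4:**
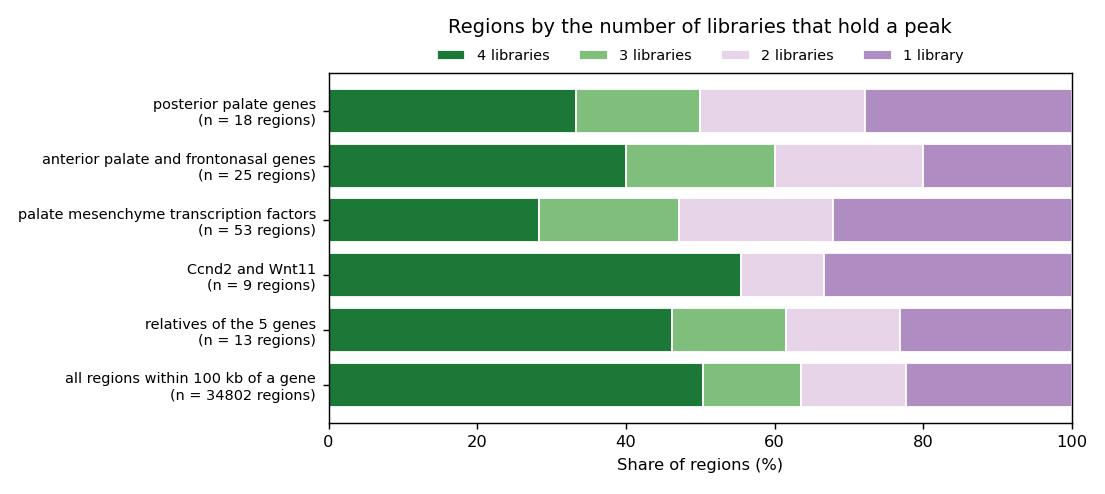
Share of regions held by 4, 3, 2 or 1 libraries, for the 5 posterior palate genes at the top and for other gene lists and all regions within 100 kb of a gene below. The posterior genes had 33.3% of regions in all 4 libraries, between the palate mesenchyme transcription factors (28.3%) and the anterior palate and frontonasal genes (40.0%).

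The number of peaks at these genes was close between genotypes. It was 12 and 13 in mutants 1 and 2, against 13 and 8 in controls 1 and 2. Control 2 had the shortest list. Per 10000 peaks of a library on the chromosomes used, this came to 4.11 and 4.09 in the mutants, against 4.30 and 3.48 in the controls. The mutants exceeded the controls by 0.204 on average, less than the spread between the controls (two-sided exact permutation p = 1.0, where 2 against 2 libraries cannot give a p under 0.333). The difference was −0.205 without control 2 and 0.612 without control 1. With the same number of top peaks from each list it was −0.653 (exact permutation p = 0.333).

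Because the lists differ in length, the 6 regions in all 4 libraries were also ranked among the 18904 regions that held a peak in every library. On this scale, too, 100 is the strongest. The region 8.47 kb below Mn1 ranked at 3.64 and 6.63 in the mutants, against 25.7 and 23.7 in the controls. The mean of the mutants minus that of the controls was −19.6 points, while libraries lay 2.99 points apart within mutants and 2.03 within controls. Of the 18904 regions, 3.48% differed by at least as much in either direction. The Hand2 region ranked at 51.7 and 54.2 in the mutants, against 59.4 and 64.7 in the controls. It was also lower in both mutants, with a mean difference of −9.13 points, and 23.8% of regions differed by at least as much.

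On this scale the other 4 regions overlapped between genotypes. The region over the lower end of Mn1 ranked at 49.2 and 50.2 in the mutants, against 39.6 and 49.9 in the controls. The region above Mn1 ranked at 42.8 and 0.574 in the mutants, against 38.2 and 16.9 in the controls. The start of Meox2 ranked at 38.3 and 23.5 in the mutants, against 26.1 and 37.8 in the controls, and its distal region at 12.6 and 27.7, against 23.2 and 23.8. By rank, genotypes did not overlap in 2 of these 6 regions, both lower in mutants, against 35.6% of all regions in 4 libraries, where 18% were lower in mutants and 17.6% higher. That share is near the background. By percentile within the whole lists there were also 2, but they were the region below Mn1, lower in mutants, and the lower end of Mn1, higher in mutants, while the Hand2 region overlapped. On that scale both mutants were higher at 29.1% and lower at 5.61% of all regions in 4 libraries. The region 8.47 kb below Mn1 was thus the only one of the 6 where the genotypes stayed apart on both scales. Both scales order the same deposited −log10 p values, so they are not independent. The share of all regions that stayed apart on both scales was not counted, so whether this region is unusual in that respect cannot be told. The mean difference between mutants and controls was below 0 at 5 of the 6 regions by rank. Its median was −4.62 points, against −0.0231 over all regions in 4 libraries. By percentile the mean difference was below 0 at 3 of the 6, with a median of 0.664, against 3.28 over all regions in 4 libraries. The share of all regions below 0 is not given here on either scale, so these counts have no background. No test was run on single regions, since the exact permutation test cannot give a p under 0.333 here. A rank compares peaks within a library and does not measure accessibility itself.

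**Figure D5:**
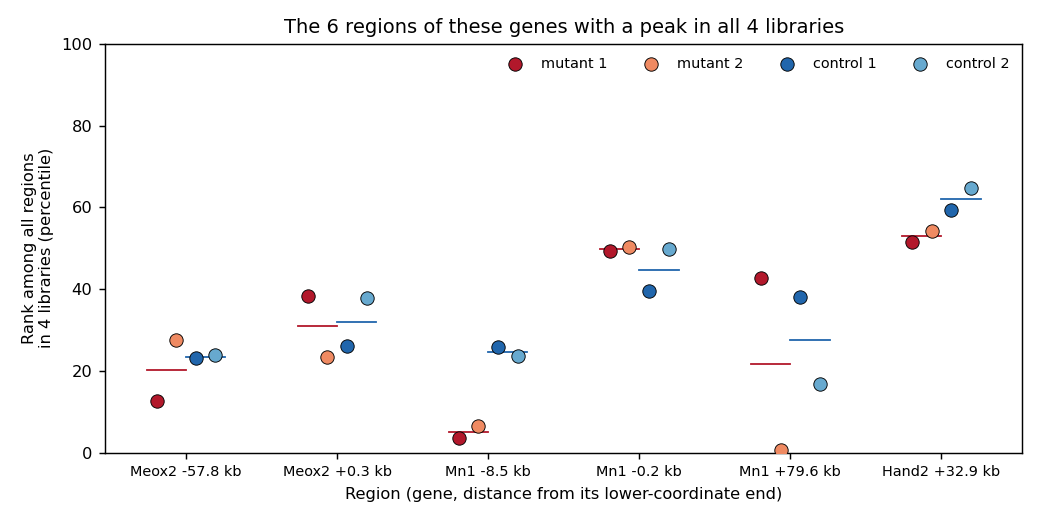
Rank of the 6 regions with a peak in all 4 libraries among the 18904 such regions, as a percentile (100 is the strongest peak). Each point is a library, with mutants left of controls, and lines are the means of the 2 libraries. The region 8.47 kb below Mn1 sat at 3.64 and 6.63 in the mutants, against 25.7 and 23.7 in the controls.

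A missing call at these genes could not be read as closed chromatin. Counting every region and every library without a peak in it gave 26 absences. In all 26, at least 1 numbered peak was missing between the listed peaks on either side, with 1 to 15 missing and a median of 5. This was no feature of these genes, since a number was missing at 99.8% of all 45845 such absences in the lists, with a median of 6. Whether a removed peak lay in the region itself cannot be told, since the lists do not give its position. Within 100 kb of the 5 genes there were 29 regions whichever gene was nearest, and 9 held a peak in all 4 libraries. The 11 that were nearer to another gene lay toward Ptpdc1 (4 regions beside Barx1), Pitpnb (4 beside Mn1), Scrg1 (2 beside Hand2) and Agmo (1 beside Meox2). Beyond 100 kb, with one of the 5 genes still the nearest, were 10 more regions, 7 of them at Mn1, and 1 held a peak in all 4 libraries.

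Relatives of these genes differed in their called regions. Barx2, the relative of Barx1, had 5 regions, 3 of them in all 4 libraries, and a region at a gene end in all 4. Its strongest peak reached percentiles of 47.9 and 69.6 in the mutants, against 64.1 and 55.1 in the controls, where the strongest of Barx1 reached 24.3 and 22.1 in the mutants, against 35.9 in control 1. Meox1, the relative of Meox2, had 0 regions, as did 32.0% of protein-coding genes. Hand1, the relative of Hand2, had 1, called in mutant 2 at percentile 11.5. Of the T-box genes closest to Tbx22, Tbx18 had 2 regions, both in all 4 libraries, with a region at a gene end in each, and Tbx15 had 5, of which 1 was in all 4. The 5 relatives together had 6 of 13 regions in all 4 libraries (46.2%), against 50.4% of all regions within 100 kb of a gene.

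Ccnd2 and Wnt11 were taken as genes linked to this programme in mouse palate. Ccnd2, the cyclin D2 gene, which depends on Mn1 there, had 4 regions, of which 3 were in all 4 libraries, and a region at a gene end in every library. Its strongest peak reached percentiles of 50.8 and 49.0 in the mutants, against 49.0 and 29.5 in the controls. Wnt11, which encodes a secreted signal, had 5 regions, 2 of them in all 4 libraries and none at a gene end. Together 5 of their 9 regions were in all 4 libraries (55.6%), with 0 mutant-only and 0 control-only regions.

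Genes of the anterior palate and frontonasal mesenchyme had 25 regions at 7 genes, 10 of them in all 4 libraries (40.0%). They had 1 mutant-only and 1 control-only region, and 3 of the 7 genes had a region at a gene end in every library. Msx1, a homeobox gene of the anterior palate, had 2 regions, both in all 4 libraries, with a strongest peak at percentiles 75.8 and 79.2 in the mutants, against 70.4 and 63.7 in the controls. Shox2 itself had 3 regions and 0 in all 4 libraries, as Barx1 and Tbx22 did in that count. The 15 transcription factor genes of palate mesenchyme had 53 regions, 15 of them in all 4 libraries (28.3%), with 5 mutant-only and 1 control-only. Among them Osr2, a zinc finger gene of the palatal shelves, had 6 regions and 3 in all 4 libraries, and Pax9, a paired box gene, had 4 and 3. The strongest peak at Pax9 lay at percentiles 86.9 and 90.3 in the mutants, against 86.7 and 87.3 in the controls, higher than the strongest at any of the 5 posterior genes in the same library.

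Other genes shared the pattern of each member over the 4 libraries. Likeness was the sum over the libraries of the difference in percentile of the strongest peak, among genes with equal numbers of regions in total and in all 4 libraries. Among 147 such genes, the 3 nearest to Mn1 were Spink13, Kank1 and Bfsp1, with sums of 6.67 to 12.2 points. Among 1742 genes, those nearest to Tbx22 were Acsm1, Olfr220 and Grk3, with sums of 9.03 to 13.5 points. Among 69 genes, Dlx6 and Hpse2 were among the nearest to Barx1, with 16.9 and 23.3 points. Each lacked a peak in control 2, which the score itself favours and which is no separate trait. Among 109 genes, Slco3a1, Aff3 and Srpk2 were nearest to Meox2, with 6.60 to 17.6 points. Among 718 genes, Gpd1l, Chmp2b and Ccdc39 were nearest to Hand2, with 5.27 to 9.79 points. These matches rest on 4 libraries and are a description.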

How the data were processed

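The members and gene lists were chosen with earlier results of these data known. The authors deposited 1 headerless peak list per library, in the 10 columns of the narrowPeak layout, with mm10 named as the build in the submitters' processing notes. For the aligner, the peak caller, their settings and the removal of numbered peaks, details were not given in the sources used here. Values in the lists belong to single peaks. The deposited −log10 p and −log10 q values, the deposited fold enrichment, whose background is not given, and the deposited summit distance were used to describe, filter or rank peaks within a library. The deposited score, the whole part of 10 times −log10 p in nearly all peaks, was not used.

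Peaks on chromosomes 1 to 19 and X that shared at least 1 bp were merged into regions (Python 3.11.15, pandas 2.3.3, numpy 2.4.6). A region held a peak of a library if any listed peak was merged into it, and the strongest was used. Its midpoint went to the closest protein-coding gene within 100 kb, of 21631 in RefSeq GRCm38.p6, or, inside several genes, to the gene with the nearest end. RefSeq promoter sequences matched 4 of the 5 genes. Mutant-only and control-only mean a peak in both libraries of that genotype and in none of the other. Libraries were grouped by title and genotype. Merging and assignment were tested on simulated data with 2000 planted regions, all recovered. Binomial intervals used scipy 1.17.1 and permutation tests listed every split of the libraries. Named genes were the 5 members, their relatives, Ccnd2, Wnt11, Shox2, Msx1, Osr2, Pax9, markers without a region and the 3 most like genes per member, of which 1 is not reported here. Alternatives were a stricter threshold, equal peak numbers, another overlap, distance and assignment rule, each library left out, and a replicate block. The ranking among regions in all 4 libraries was chosen after seeing the data.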

Additional observations from a re-analysis of the deposited data

How the results depend on the processing

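The lists give no reads, so depth limits every call and its effect is unknown. The 18 regions became 6 in the upper 50% of each list, 11 with 22959 top peaks from each list and 29 when every region within 100 kb counted, whichever gene was nearest; fewer peaks or a wider rule give other numbers by construction. With all 4 libraries kept, the share of regions in every library ran from 31.0% (every region within 100 kb) to 36.4% (equal peak numbers) under the alternatives. It was 33.3% to 46.7% with a library left out. There a peak in the remaining libraries was enough, so the share could not fall by construction, and the matching share over all regions is not given. The alternatives reuse the same peaks and are no independent check. The difference in peaks per 10000 (mutant minus control, 0.204) was −0.653 with equal peak numbers and −0.390 with a limit of 50 kb, and ran from −0.205 to 0.612 with a library left out; the cause was not tested. Over all regions in 4 libraries, the median percentile was 67.6 and 70.2 in the mutants, against 68.7 and 58.8 in the controls. For the 6 shared regions of these genes it was 61.2 and 53.8 in the mutants, against 56.6 and 42.1 in the controls. This was a difference of 8.18 for mutants minus controls (exact permutation p = 0.667). It ran from −6.90 to 20.2 with a library left out and was 1.597 by rank among regions in all 4 libraries (exact permutation p = 1.0). The median of the differences within regions turned from 0.664 by percentile to −4.62 by that rank. A −log10 q of at least 5, or a demand that peaks cover at least 50% of the region, changed no count of regions.

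Replicate numbers are shared by the genotypes, but the labels do not say that they mark a pair, and over 18904 regions the deviations of same-numbered libraries had a correlation of 0.0274. With the replicate number as a block the differences were 0.204 (exact sign-flip p = 1.0) and 8.18 (exact sign-flip p = 0.5), where 2 pairs cannot give less than 0.5.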
